A study of Mus musculus with 8 samples.

Results

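The genes described here are 9 genes of the PI3K, AKT and mTOR pathway: Pik3cd, Phlpp1, Akt1, Mtor, Rptor, Rictor, Tsc1, Tsc2 and Foxo3. They were taken by gene symbol from a table of 28239 genes, each symbol was found once, and all 9 had enough reads to be tested. RNA was measured in regulatory T cells (Tregs) grown from splenic naïve CD4+ T cells of 4 WT and 4 Alox15-/- mice. Alox15 codes for the lipoxygenase ALOX15, which makes lipid mediators from polyunsaturated fatty acids. Both groups had a C57BL/6 background, and their naïve cells, obtained by magnetic depletion of other spleen cells, all received IL-2, TGF-β and beads carrying antibodies to CD3 and CD28 for 2 days, so that no untreated cells serve as a further control. The study's methods give mice of both sexes aged 10 to 12 weeks, with WT and Alox15-/- mice bought from different suppliers, so that genotype and source of the mice cannot be told apart. Each library came from 1 mouse, and p-values refer to the spread between mice.

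PI3Kδ, whose catalytic subunit is the product of Pik3cd, is recruited below the T cell receptor, CD28 and the IL-2 receptor and makes the lipid that brings AKT to the membrane, where the phosphatase PHLPP1 can remove a phosphate from AKT. AKT inhibits the TSC1 and TSC2 complex, which otherwise holds back mTOR, and it also drives FOXO transcription factors such as FOXO3 out of the nucleus. mTOR works in one complex with RAPTOR (Rptor), which controls protein synthesis and metabolism, and in another with RICTOR, which phosphorylates AKT. In T cells strong PI3K and mTOR signaling favors effector fates, whereas FOXO factors and a restrained pathway favor Treg induction. Most of this regulation acts on proteins by phosphorylation, which RNA counts do not measure.

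RNA was profiled by MACE-seq, which sequences transcripts near their 3′ ends, and a library held 3723151 to 9538962 counts on genes. Values are counts scaled to a common library size (CPM), with the SD over the 4 libraries of a group, and log2 fold changes are for libraries labelled Alox15-/- over WT. Because a 3′ count depends on the gene's own end, levels of different genes were set against each other only as ratios, to compare the groups. Alox15 itself was higher in the libraries labelled Alox15-/-, at 63.4 to 70.1 CPM against 1.87 to 8.98 CPM in WT (log2 fold change 3.65, SE 0.299, adjusted p = 1.08e-05). Where these reads lie relative to the deleted segment was not tested, so they do not check the genotype, and the groups are named by their labels throughout. T cell marker genes summed to 1571 to 1808 CPM in the libraries labelled Alox15-/- and 1729 to 1801 CPM in WT, and Treg markers to 1760 to 1913 and 1803 to 2021 CPM. These sums joined genes that went opposite ways. Cd4 was lower in all 4 libraries labelled Alox15-/- (mean 267 against 334 CPM, adjusted p = 0.357 by edgeR). Cd3g was higher in all 4 (160 against 129 CPM, adjusted p = 0.296 by edgeR). Il2ra (764 against 829 CPM) and Ctla4 (478 against 447 CPM) were the largest parts of the Treg sum, and Foxp3 had 92.9 against 124 CPM. All 5 erythroid markers tested were higher in the libraries labelled Alox15-/- (903 to 3472 against 33.7 to 122 CPM summed), as were 5 of 5 mast cell or basophil markers (102 to 295 against 26.2 to 46.4 CPM) and 6 of 6 myeloid markers (46.1 to 341 against 11.7 to 16.1 CPM). The part of these other cells in the values below was not tested. In RNA of mixed cells, fewer cells of a type and less RNA per cell cannot be told apart.

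None of the 9 genes differed between the groups by edgeR's quasi-likelihood test with Benjamini–Hochberg adjustment, with adjusted p-values from 0.753 to 0.998. Over all 12700 genes tested, 1.24% passed the adjusted threshold of 0.05. None of the 9 had an unadjusted p under 0.05 (7.84% of all genes did), and in none did the 4 libraries of one group lie wholly above those of the other (5.25% of all genes did). DESeq2 and limma-voom also called none of the 9. The fold changes ran from -0.22 for Tsc2 to 0.03 for Foxo3 on the log2 scale. Their median was -0.09, next to -0.01 over all genes tested, and 8 of the 9 were below 0 (6 with upper quartile scaling, 5 without library 3 labelled Alox15-/- and 9 without its library 1), as were 51.8% of all genes. The 95% intervals of the 9 fold changes together spanned -0.57 to 0.37, which limits how large a difference in either direction these libraries leave possible.

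**Figure D1:**
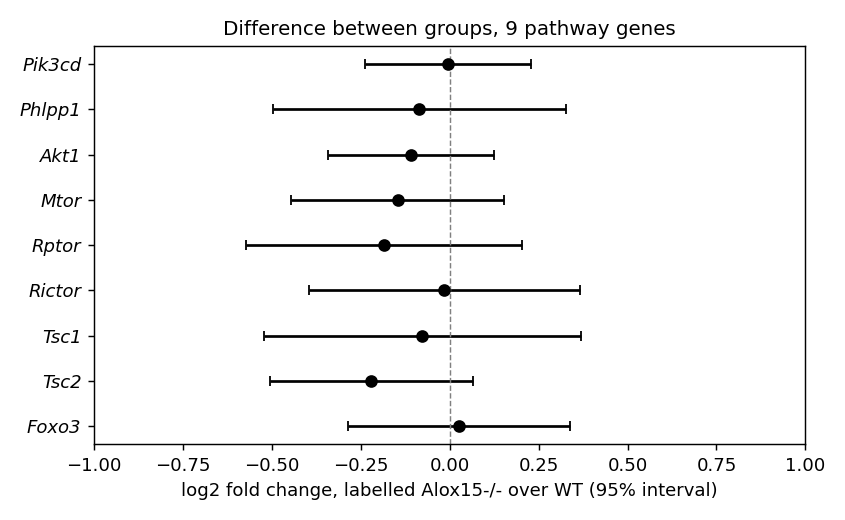
Log2 fold change of each of the 9 pathway genes (horizontal axis) in libraries labelled Alox15-/- over WT, with bars for the 95% interval of the edgeR fit over 4 libraries per group. All 9 intervals include 0, and the points run from -0.22 (Tsc2) to 0.03 (Foxo3).

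Pik3cd, at the top of the pathway, had nearly equal group means. Its level was 225, 191, 201 and 247 CPM in libraries 1 to 4 labelled Alox15-/- and 207, 194, 246 and 222 CPM in WT libraries 1 to 4. The lowest and the highest library of the 2 groups lay within 3 CPM of each other, and the ranges covered one another almost fully. The means were 216 ± 25.1 and 217 ± 22.4 CPM (SD, n = 4), with a log2 fold change of -0.004 (SE 0.110, 95% interval -0.24 to 0.23, adjusted p = 0.998). Pik3cd rested on 709 to 2453 counts per library, and its coefficient of variation within a group, 11.6% and 10.3%, was above the 3.12% and 2.68% that counting error alone gives.

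Akt1, the kinase that PI3K activates, stood at 126, 155, 131 and 116 CPM in the libraries labelled Alox15-/- and at 151, 152, 136 and 129 CPM in WT. The highest of all 8 values came from a library labelled Alox15-/-, and so did the lowest. The log2 fold change was -0.11 (SE 0.109, 95% interval -0.34 to 0.12, adjusted p = 0.865), from means of 132 ± 16.7 and 142 ± 11.4 CPM (SD, n = 4). Phlpp1, which opposes AKT, was measured at only 25 to 65 counts per library. Its level was 6.48, 6.75, 6.40 and 6.30 CPM in the libraries labelled Alox15-/- and 6.40, 7.33, 6.52 and 7.31 CPM in WT, with a log2 fold change of -0.09 (SE 0.193, 95% interval -0.50 to 0.33, adjusted p = 0.949). The 4 libraries labelled Alox15-/- differed by 2.98% (coefficient of variation), less than the 17.9% that counting error gives at this depth, so that the closeness of these 4 values is narrower than the counts can resolve. The ratio of Phlpp1 to Akt1 counts within a library, which does not depend on library scaling, was 0.0436 to 0.0545 in the libraries labelled Alox15-/- and 0.0423 to 0.0567 in WT.

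Tsc1 and Tsc2 form the complex that holds mTORC1 back. Tsc2 had the most negative fold change of the 9 genes, with 31.2, 36.4, 36.9 and 26.3 CPM in the libraries labelled Alox15-/- and 33.1, 39.4, 39.6 and 39.7 CPM in WT. WT libraries 2, 3 and 4 lay above every library labelled Alox15-/-, whereas WT library 1 lay among them. The means were 32.7 ± 4.97 and 37.9 ± 3.24 CPM (SD, n = 4), and the log2 fold change of -0.22 (SE 0.134, 95% interval -0.51 to 0.07) did not pass the test (unadjusted p = 0.120, adjusted p = 0.753). The last 500 bases of Tsc2 overlap Pkd1 on the opposite strand, a gene with a mean of 13.2 CPM in the libraries labelled Alox15-/- and 15.9 CPM in WT, and whether the authors' counts used strand is not given in the sources used here. Tsc1 was at 15.1, 14.0, 12.6 and 24.0 CPM in the libraries labelled Alox15-/- and at 17.2, 13.6, 18.2 and 21.9 CPM in WT. Library 4 labelled Alox15-/- gave the highest Tsc1 value and the lowest Tsc2 value of all 8 libraries. The log2 fold change of Tsc1 was -0.08 (SE 0.209, 95% interval -0.52 to 0.37, adjusted p = 0.964) and became -0.34 without that library.

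Mtor codes for the kinase shared by both complexes. It was at 29.5, 27.0, 27.7 and 25.6 CPM in the libraries labelled Alox15-/- and at 23.7, 30.9, 36.0 and 30.3 CPM in WT. WT libraries 2, 3 and 4 lay above every library labelled Alox15-/-, and WT library 1 held the lowest Mtor value of all 8. The WT coefficient of variation of 16.7% was above the 7.22% of counting error, whereas the 5.94% among the libraries labelled Alox15-/- was under their counting error of 8.68%. The log2 fold change was -0.15 (SE 0.141, 95% interval -0.45 to 0.15, adjusted p = 0.855). Rptor, for the defining subunit of mTORC1, was at 34.6, 24.0, 31.8 and 25.9 CPM in the libraries labelled Alox15-/- and at 26.8, 24.4, 39.1 and 42.0 CPM in WT. WT libraries fell into a lower and a higher pair that spanned the whole range of the other group's Rptor values but its lowest, and the interval of its fold change had the lowest bound among the 9 genes (log2 fold change -0.19, SE 0.182, 95% interval -0.57 to 0.20, adjusted p = 0.861). Rptor lies on the chromosome of Alox15, 49.3 Mb away. Rictor, for the defining subunit of mTORC2, was at 19.2, 18.9, 12.2 and 21.5 CPM in the libraries labelled Alox15-/- and at 17.3, 19.0, 20.7 and 15.2 CPM in WT. Its fold change was close to 0 (-0.02 on the log2 scale, SE 0.179, 95% interval -0.40 to 0.37, adjusted p = 0.993).

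Foxo3, which AKT inactivates, was the 1 gene of the 9 with a fold change above 0. Its level was 56.4, 39.7, 42.9 and 46.4 CPM in the libraries labelled Alox15-/- and 48.2, 41.0, 37.3 and 56.6 CPM in WT. The highest value in each group was nearly the same. Its means of 46.3 ± 7.26 and 45.8 ± 8.51 CPM (SD, n = 4) gave a log2 fold change of 0.03 (SE 0.146, 95% interval -0.29 to 0.34, adjusted p = 0.983).

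**Figure D2:**
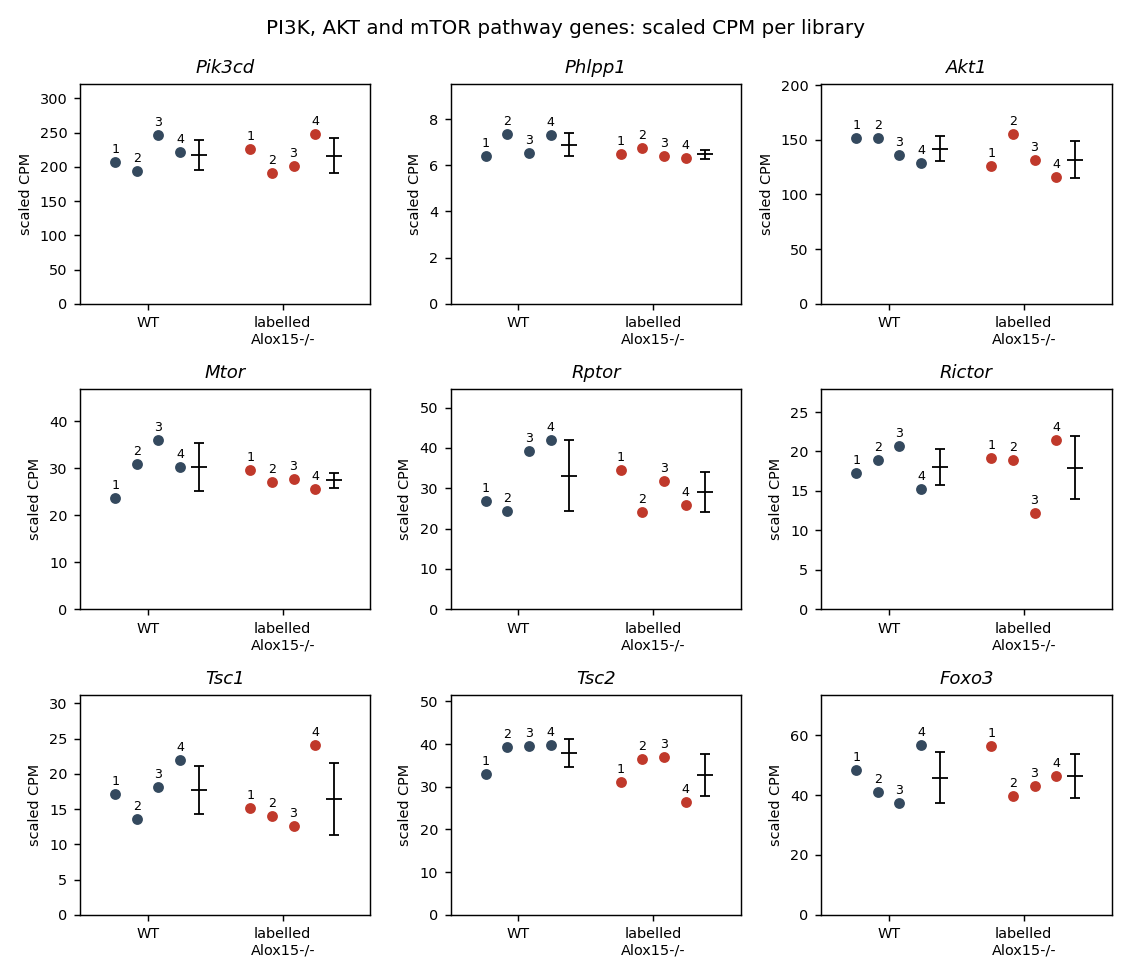
Scaled CPM (vertical axis, from 0) of the 9 pathway genes in each WT library (blue) and each library labelled Alox15-/- (red), numbered 1 to 4, with the mean and SD of each group beside the points. The groups overlap in every panel, and for Tsc2 and Mtor 3 WT libraries (39.4 to 39.7 and 30.3 to 36.0 CPM) lie above all 4 libraries labelled Alox15-/- (26.3 to 36.9 and 25.6 to 29.5 CPM).

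Across the 9 genes together, the median of the centred log2 CPM was highest in WT library 3 (0.18), WT library 4 (0.13) and WT library 2 (0.10). It was 0.04 in library 1 labelled Alox15-/- and between -0.09 and -0.06 in the other 4 libraries, with WT library 1 among them, so that the groups overlapped.

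Partners of the pathway were compared between the groups as a ratio of counts within each library. The size of a ratio of 3′ counts does not give the proportion of the transcripts, so only the difference between groups was read. The log2 ratio of Rptor to Rictor averaged 0.71 ± 0.513 in the libraries labelled Alox15-/- and 0.84 ± 0.470 in WT (SD, n = 4, with p = 0.686 in a two-sided exact permutation test). Single libraries labelled Alox15-/- held 1.21 to 2.60 Rptor counts per Rictor count and WT libraries 1.29 to 2.75, and the spread within a group was far above the difference of -0.13 (SE 0.348) between the group means. For Tsc1 to Tsc2 the difference was 0.09 (SE 0.35, exact permutation p = 0.857), and library 4 labelled Alox15-/- stood apart at 0.913 Tsc1 counts per Tsc2 count where the other 7 libraries lay between 0.342 and 0.553. Phlpp1 to Akt1 gave a difference of 0.03 (SE 0.111, exact permutation p = 0.8) and Foxo3 to Foxo1 one of 0.04 (SE 0.259, exact permutation p = 0.83). All 4 ratios overlapped between the groups with an adjusted p of 0.857, where the smallest p that 4 libraries against 4 allow is 0.0286.

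**Figure D3:**
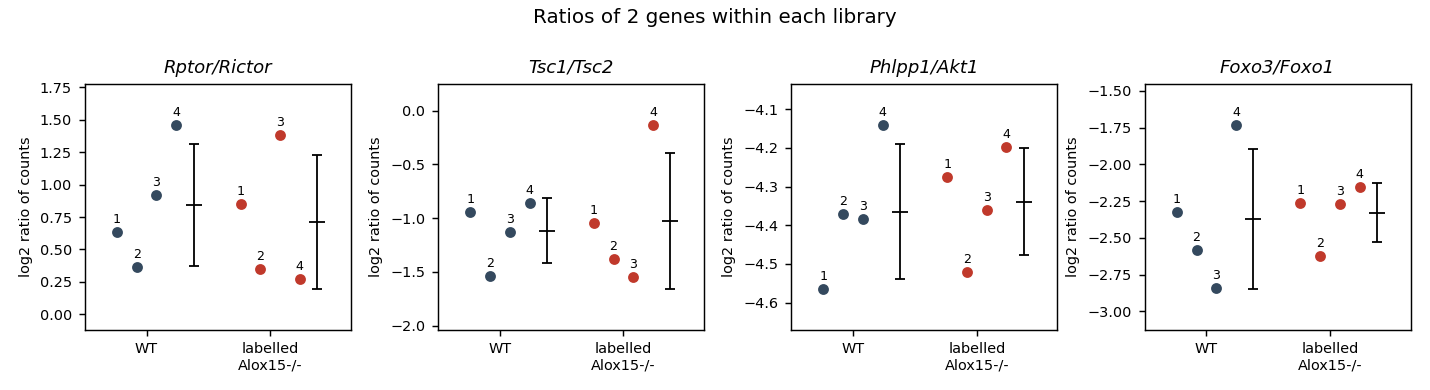
Log2 ratio of the counts of 2 genes within each WT library (blue) and each library labelled Alox15-/- (red), numbered 1 to 4, with the mean and SD of each group. The vertical axes differ between panels and do not start at 0, and in all 4 panels the values of the groups overlap.

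The 9 genes sit among 108 others of the pathway that were grouped by role, of which 106 were in the table and 100 were tested. None of the 100 passed the adjusted threshold by edgeR's quasi-likelihood test, against 1.24% of all genes, and 7 had an unadjusted p under 0.05, against 7.84% of all genes, 6 of them with a fold change above 0 and 1 below. In 3 of the 100 the groups did not overlap, against 5.25% of all genes. Limma-voom and DESeq2 called none of them either. The median log2 fold change of the 100 was -0.03, and 59.0% were below 0. Pik3r5 and Rps6kb2 were not analysed here, and Pik3ap1, Grb10, Prkaa2, Prkag3, Foxo6 and Hif1a had too few reads for a test.

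Among 7 tested PI3K subunits, 2 had a fold change above 0 and 5 below, from -0.32 (Pik3r3) to 0.45 (Pik3r6), with a median of -0.05. Pik3r6, a regulatory subunit of PI3Kγ, was at 31.5, 31.0, 28.2 and 31.9 CPM in the libraries labelled Alox15-/- and at 23.3, 19.3, 27.3 and 19.2 CPM in WT. All 4 libraries labelled Alox15-/- lay above the 4 WT libraries, though library 3 of each group came within 1 CPM of the other (log2 fold change 0.45, SE 0.142, 95% interval 0.15 to 0.75, unadjusted p = 0.00629, adjusted p = 0.270). Pik3r6 lies 1.79 Mb from Alox15 on chromosome 11. Of the 6 genes for phosphatases and inhibitors that oppose PI3K, 4 were above 0 and 2 below, with a median of 0.15. Inpp4b, which removes a phosphate from a PI3K product, averaged 143 ± 20.8 CPM in the libraries labelled Alox15-/- and 113 ± 20.8 CPM in WT (SD, n = 4; log2 fold change 0.33, adjusted p = 0.560). Pik3ip1, an inhibitor of PI3K in T cells, had the highest fold change of the list (0.38, adjusted p = 0.650), and Inpp5d, for the phosphatase SHIP1, the lowest (-0.14).

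Of 5 AKT and related kinase genes, 3 were above 0 and 2 below, and the highest fold change was 0.31 for Sgk1, a relative of AKT at only 2.18 to 9.98 CPM per library. The 4 genes that act with TSC or RHEB split evenly, from -0.11 for Tbc1d7, the third subunit of the TSC complex, to 0.13 for Rhebl1, a relative of the GTPase that activates mTORC1. Among 9 further subunits and assembly factors of the mTOR complexes, 3 were above 0 and 6 below, with a median of -0.10. Their extremes were Tti2, an assembly factor (-0.30, unadjusted p = 0.0546, adjusted p = 0.654), and Prr5, an mTORC2 subunit (0.42), which had 0.957 to 2.82 CPM and an interval from -0.35 to 1.19.

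Downstream of mTORC1, 3 of 10 substrates were above 0 and 7 below, from -0.32 (Larp1) to 0.13 (Eif4ebp1, a translation repressor that mTORC1 inactivates). Larp1, an RNA-binding protein that controls the translation of ribosomal protein mRNAs, was the 1 gene of the pathway lists that was lower with an unadjusted p under 0.05. It was at 339, 274, 261 and 316 CPM in the libraries labelled Alox15-/- and at 359, 331, 456 and 342 CPM in WT (log2 fold change -0.32, SE 0.121, unadjusted p = 0.0174, adjusted p = 0.458), and the groups overlapped through library 1 labelled Alox15-/- and WT library 2. Larp1 lies on chromosome 11, 12.3 Mb from Alox15. Of 9 genes that mTORC1 activity is known to raise, such as those for glucose uptake, 2 were above 0 and 7 below, from -0.16 (Slc2a1, a glucose transporter) to 0.10 (Hk2, a hexokinase), with a median of -0.07. Of 8 AMPK and LKB1 genes, which restrain mTORC1 when energy is low, 4 were above 0 and 4 below, from -0.15 (Strada) to 0.10 (Stk11, the gene for LKB1).

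The amino acid sensing list, with the RAG GTPases, the Ragulator complex that anchors them on the lysosome and the GATOR complexes, had 10 of 29 genes above 0 and 19 below, with a median of -0.07. Its lowest gene was Wdr24 of GATOR2 (-0.25), and 2 of the 29 (6.90%, against 7.84% of all genes) had an unadjusted p under 0.05, both for subunits of Ragulator. Lamtor2 was at 49.9, 51.0, 52.5 and 51.9 CPM in the libraries labelled Alox15-/- and at 48.5, 46.1, 43.0 and 33.8 CPM in WT (log2 fold change 0.26, unadjusted p = 0.0486, adjusted p = 0.635). Lamtor4 was at 44.9, 52.3, 44.2 and 46.6 CPM in the libraries labelled Alox15-/- and at 38.4, 38.6, 33.8 and 43.8 CPM in WT (log2 fold change 0.29, unadjusted p = 0.0261, adjusted p = 0.534). In both genes the groups did not overlap, with gaps of under 2 CPM between the nearest libraries. Lamtor1, for the subunit that holds Ragulator on the membrane, had a log2 fold change of -0.07 (95% interval -0.29 to 0.16), and the remaining subunit genes Lamtor3 and Lamtor5 had 0.05 (-0.22 to 0.33) and -0.08 (-0.34 to 0.18).

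FOXO factors other than Foxo3 were near 0, with log2 fold changes of -0.02 for Foxo1 (232 ± 31.5 and 236 ± 34.0 CPM) and -0.09 for Foxo4. Of 11 genes that FOXO factors are known to regulate, 8 were above 0 and 3 below, with a median of 0.10. Il7r, the IL-7 receptor subunit of naïve and memory T cells, was at 19.7, 20.8, 13.9 and 21.6 CPM in the libraries labelled Alox15-/- and at 10.3, 11.8, 17.4 and 12.1 CPM in WT (log2 fold change 0.54, SE 0.194, unadjusted p = 0.0140, adjusted p = 0.415). Cdkn1b, the cell cycle inhibitor p27, was at 58.8, 67.2, 72.6 and 86.6 CPM and at 51.3, 53.6, 68.4 and 39.0 CPM (log2 fold change 0.42, SE 0.157, unadjusted p = 0.0171, adjusted p = 0.458). In both genes WT library 3 was the highest of its group and lay within the range of the libraries labelled Alox15-/-. Foxp3, the lineage factor of Tregs, had the lowest fold change of the list, -0.42 (SE 0.203, 95% interval -0.86 to 0.01, unadjusted p = 0.0557, adjusted p = 0.655). Foxp3 was at 71.3, 95, 92.5 and 113 CPM in the libraries labelled Alox15-/- and at 109, 101, 194 and 92.9 CPM in WT, and without WT library 3, at 194 CPM, its log2 fold change was -0.11.

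**Figure D4:**
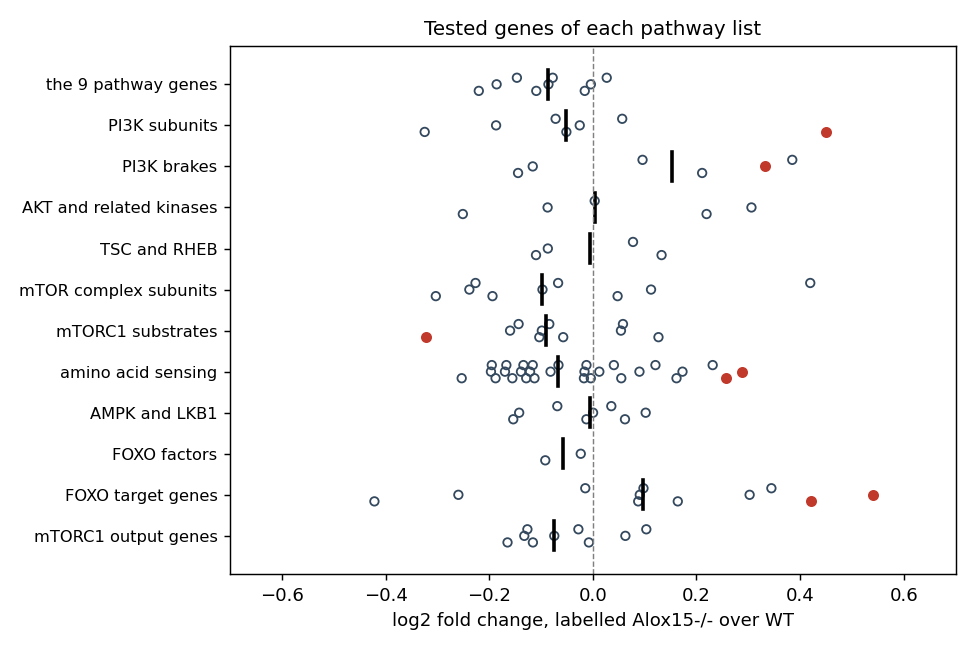
Log2 fold change (horizontal axis, libraries labelled Alox15-/- over WT) of the 9 pathway genes and of the 100 other tested genes by role, with 1 point per gene, a vertical bar at the median of each list and red points for an unadjusted p under 0.05. The 7 red points lie in the lists of PI3K subunits, PI3K brakes, mTORC1 substrates, amino acid sensing and FOXO target genes, and none passed the adjusted threshold.

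**Figure D5:**
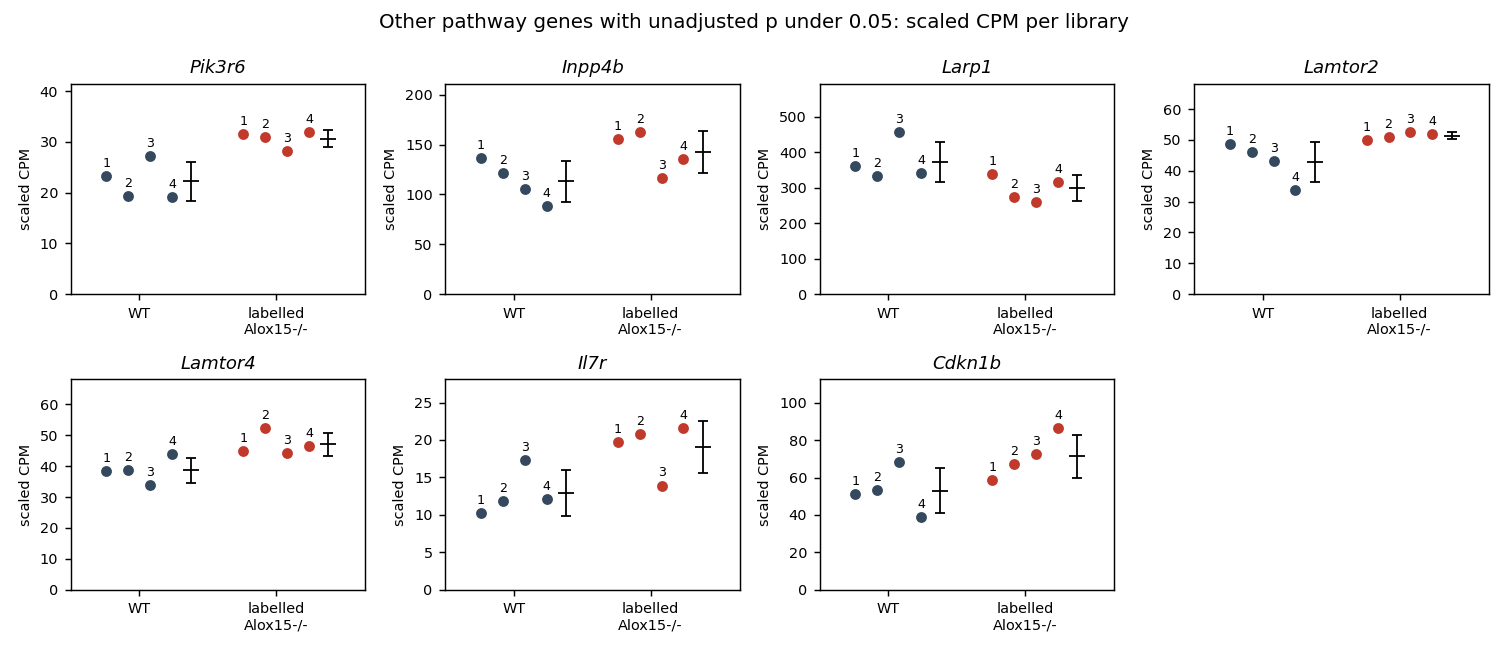
Scaled CPM (vertical axis, from 0) of the 7 other pathway genes with an unadjusted p under 0.05 in each WT library (blue) and each library labelled Alox15-/- (red), numbered 1 to 4, with the mean and SD of each group. The groups do not overlap for Pik3r6, Lamtor2 and Lamtor4, which are 3 of the 100 pathway genes tested (5.25% of all genes do not overlap), and overlap for the other 4 genes.

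Promoter sequences were searched for the core motifs of FOXO factors and of TFEB, the lysosomal gene regulator that mTORC1 keeps out of the nucleus. RefSeq windows of 300 bases (GRCm38.p6, 250 bases before to 50 after a start) were found for all 9 genes, with 12 windows, and for 96 genes when the pathway lists were added, with 132 windows. The FOXO motif GTAAACA, read on both strands, was present in 3.65% of all 32851 windows, in 5.30% of the 132 and in 1 of the 12, a promoter of Akt1. The E-box CACGTG, which reads the same on both strands, was in 7.15% of all windows, in 9.09% of the 132 and in none of the 12. The stretches below, on the strand of the gene with the motif in capitals, show the Akt1 match beside that of Bcl2l11, a FOXO target that codes for the death protein BIM, and the E-boxes of 3 lysosomal genes of the amino acid sensing list.
Akt1, chr12:112675017-112675067, minus strand: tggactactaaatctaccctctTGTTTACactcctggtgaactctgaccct
Bcl2l11, chr2:128125789-128125839, plus strand: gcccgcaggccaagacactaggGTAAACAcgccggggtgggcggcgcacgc
Lamtor4, chr5:138255340-138255389, plus strand: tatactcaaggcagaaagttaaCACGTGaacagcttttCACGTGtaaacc
Lamtor1, chr7:101905747-101905796, plus strand: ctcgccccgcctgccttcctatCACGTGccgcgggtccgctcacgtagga
Rragc, chr4:123917299-123917348, plus strand: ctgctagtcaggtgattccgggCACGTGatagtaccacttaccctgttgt

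The Akt1 match begins 161 bases before an annotated start of the gene, and Akt1 and Bcl2l11, with log2 fold changes of -0.11 and 0.09, did not pass the test. Lamtor4 holds 2 E-boxes within this stretch, and Lamtor1 and Rragc hold 1 each. Log2 fold changes were 0.29 for Lamtor4, -0.07 for Lamtor1 and -0.14 for Rragc. These genes were picked from 12 with an E-box in a window. A match describes the letters of these windows and shows neither binding nor which factor would bind.

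The pathway gene with the most similar pattern over the 8 libraries was found for each of the 9 by the root mean square (RMS) difference of centred log2 CPM, among 108 genes, as a description. Akt1 was most like Seh1l, a GATOR2 subunit (0.0751), Phlpp1 like Slc3a2, an amino acid transporter subunit (0.0841, more than the 0.0761 by which Phlpp1 deviated from its own mean), and Pik3cd like Wdr59, also of GATOR2 (0.0887). Mtor was most like Depdc5, a GATOR1 subunit (0.0887), and Foxo3 like Ddit4, an inhibitor of mTORC1 (0.0906). For Rptor and Tsc1 the nearest genes, Eif4ebp3 and Foxo4, were at 0.187 and 0.195, whereas the RMS deviation of Rptor and Tsc1 from their own means was 0.289 and 0.304. These values share library scaling and counting error.

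Positions of the 9 genes are those of the GENCODE annotation of GRCm38, with start and end in bases, and Pik3cd and Mtor lie on the same chromosome. Pik3cd (ENSMUSG00000039936.18) spans 149649168 to 149702571 on the minus strand of chromosome 4 and Mtor (ENSMUSG00000028991.15) 148448611 to 148557683 on its plus strand. Akt1 (ENSMUSG00000001729.14) spans 112653821 to 112674884 on the minus strand of chromosome 12, and Phlpp1 (ENSMUSG00000044340.7) 106171752 to 106394250 on the plus strand of chromosome 1. Rptor (ENSMUSG00000025583.15) spans 119602905 to 119899576 on the plus strand of chromosome 11, and Rictor (ENSMUSG00000050310.9) 6708379 to 6800401 on the plus strand of chromosome 15. Tsc1 (ENSMUSG00000026812.16) spans 28641228 to 28691167 on the plus strand of chromosome 2, and Tsc2 (ENSMUSG00000002496.10) 24595816 to 24632630 on the minus strand of chromosome 17. Foxo3 (ENSMUSG00000048756.11) spans 42181841 to 42276755 on the minus strand of chromosome 10. Alox15 (ENSMUSG00000018924.6) lies at 70344152 to 70352031 on the minus strand of chromosome 11.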

How the data were processed

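The authors deposited raw counts of MACE-seq reads per gene symbol for 8 libraries, without normalization. The labels describe the reads as cleaned and trimmed and name a small RNA kit, whereas the study's methods name a MACE-Seq kit. The submitters' processing notes name Bowtie, edgeR and GRCm38 without versions, and the sources used here do not give the counting tool, its use of strand or whether duplicate reads were removed. Total counts were 3723151 to 9538962 per library, and the biological coefficient of variation was 14.5%.

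The 12700 genes (45.0%) that reached 2 CPM in 4 or more libraries were compared between 4 libraries labelled Alox15-/- and 4 labelled WT by edgeR 4.0.16 (R 4.3.3): TMM scaling, two-sided quasi-likelihood test of the group with no further term, and Benjamini–Hochberg adjustment over the 12700 genes (threshold 0.05). Standard errors are the log2 fold change divided by the square root of F, and 95% intervals use the moderated degrees of freedom. Ratios and summed markers were compared by two-sided exact permutation tests (scipy 1.17.1), with adjustment over 4 ratios. Adjusted over 7 marker lists of other cells, the p was 0.04 for erythroid, mast or basophil, eosinophil (20.5 to 72.0 against 1.25 to 6.89 CPM), myeloid and NK or γδ T cell lists (95.3 to 175 against 46.7 to 62.7 CPM), 0.1 for CD8 T cells (12.0 to 21.8 against 21.4 to 31.6 CPM) and 0.971 for B cells (210 to 308 against 206 to 299 CPM). No marker gene was at 0 in all libraries.

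The 9 genes and all lists were chosen with earlier results of these data known. Genes are named if they are one of the 9, Alox15, pathway genes with an unadjusted p under 0.05, the highest and lowest of each list, nearest in pattern, or not testable, and some are not reported here. Lamtor1, Lamtor3, Lamtor5, Rragc, Bcl2l11, Pkd1 and the markers Cd4, Cd3g, Il2ra and Ctla4 are named outside this rule and were chosen after their values were seen. Alternatives were other scalings, filters and tests (DESeq2 1.42.0, limma 3.58.1), the replicate number as a block, a pseudocount of 0.5 for the ratios, and each library left out in turn. The steps were tested on simulated data. Figures were drawn with matplotlib 3.10.9.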

Additional observations from a re-analysis of the deposited data

Results flagged for a closer look

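In groups of 4 libraries, 5 of 78 groups examined had a library whose gap to its nearest neighbour took more than 0.83 of the whole range, where chance gives about 5%, and all 5 were WT. WT library 1 was low for Tsc2, at 33.1 CPM where the other 3 WT libraries were at 39.4 to 39.7 CPM. WT library 3 was high for Foxp3, at 194 CPM against 92.9 to 109 CPM, and for Rhebl1, at 9.43 CPM against 5.22 to 5.77 CPM. WT library 2 was low for Strada, at 25.8 CPM against 31.5 to 32.3 CPM. WT library 4 was high for Wdr24, at 27.8 CPM against 22.2 to 23.0 CPM.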

How the results depend on the processing

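None of the 9 genes passed the adjusted threshold under any of the 17 alternatives, and their median log2 fold change stayed between -0.11 and -0.06. With upper quartile scaling, which moved the median of all genes from -0.01 to 0.02, the sign turned for Pik3cd (0.025), Rictor (0.014) and Foxo1 (0.0041). For Pik3cd it also turned with DESeq2 size factors (0.00055) and the DESeq2 test (0.00073). Without a filter on low counts, 388 of all genes were called in place of 158, and 1 pathway gene, Foxp3 (-0.45, unadjusted p = 0.000211, adjusted p = 0.0189). The cause was not tested.

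With each library left out in turn, none of the 9 genes and none of the other pathway genes was called, and all genes called numbered 86 to 172. The number fell past 1.5 times without library 1 (95), 2 (86) or 3 (93) labelled Alox15-/- or WT library 2 (105), each a smaller design. Fold changes ran from -0.075 to 0.068 for Pik3cd, -0.13 to 0.14 for Rictor, -0.34 to 0.043 for Tsc1 and -0.076 to 0.14 for Foxo3, all of which turned sign, and from -0.12 to -0.05 for Phlpp1, -0.19 to -0.05 for Akt1, -0.25 to -0.04 for Mtor, -0.31 to -0.06 for Rptor and -0.28 to -0.12 for Tsc2, which did not. Among named pathway genes the sign turned for Foxo1 (-0.11 to 0.050), Foxo4 (-0.22 to 0.030), Hk2 (-0.0056 to 0.21), Sgk1 (-0.090 to 0.61), Lamtor3 (-0.0094 to 0.10) and Bcl2l11 (-0.075 to 0.22). Of the 7 with an unadjusted p under 0.05, Larp1 (-0.20 without WT library 3) and Lamtor2 (0.17 without WT library 4) moved by over 1.5 times. So did Pik3ip1 (0.22 without library 4 labelled Alox15-/-), Pik3r3 (-0.56 to -0.18), Prr5 (0.24 to 0.64), Wdr24 (-0.34 to -0.14), Tbc1d7 (-0.21 to -0.0059), Rhebl1 (0.047 to 0.41), Lamtor1 (-0.12 to -0.021), Lamtor5 (-0.15 to -0.014), Inpp5d (-0.24 to -0.040), Stk11 (0.050 to 0.20), Strada (-0.22 to -0.063) and Eif4ebp1 (0.058 to 0.18). Differences of the log2 ratios ran from -0.36 to 0.073 for Rptor to Rictor, -0.21 to 0.27 for Tsc1 to Tsc2, -0.041 to 0.10 for Phlpp1 to Akt1 and -0.12 to 0.26 for Foxo3 to Foxo1.

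Libraries of the 2 groups with the same number did not deviate together (correlations of 0.07, 0.17, -0.18 and -0.02). With the replicate block, 146 genes were called, none of the 9 among them, and their median was -0.11. Each fold change or ratio was counted once per setting, so that the same gene can count several times. Of these values, 35 turned sign, 667 kept their direction and side of the threshold, and 1, Foxp3 without a filter, passed it newly. At 25 to 65 counts per library, Phlpp1 was limited by counting error.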
